A study of Homo sapiens with 6 samples.

Results

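The genes of the translation initiation factors were examined in HT1080, a human fibrosarcoma cell line. Members were the rows of the count table whose symbol begins with EIF and a digit, without the 4 eIF2 kinases, which gave 52 of 21619 rows. PolyA RNA came from 3 libraries of cells that stably overexpress PGK1 according to the series design (PGK1_OE) and 3 libraries labelled wild type (WT). PGK1 is the glycolytic enzyme phosphoglycerate kinase 1. The labels do not name the promoter or vector, do not say whether the overexpressing line is 1 clone, and do not say whether the WT cells carry an empty vector. The WT libraries are also named v511 in the labels and column headers, which do not explain that name. Nor do they say whether replicates were separate cultures, and the p-values here reflect library-to-library spread that could be technical.

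Translation initiation brings the small ribosomal subunit, the initiator tRNA and an mRNA together. eIF2, bound to GTP, carries the initiator tRNA, and eIF2B recharges eIF2 with GTP after each round. eIF1 and eIF1A guard the choice of start codon, eIF3 is the scaffold on the small subunit, and eIF4E, eIF4G and eIF4A form the complex that loads capped mRNA. The 4E-BPs hold eIF4E away from eIF4G until mTORC1 phosphorylates them, and phosphorylation of eIF2 by stress kinases blocks eIF2B. eIF5 and eIF5B finish initiation, eIF5A acts mainly in elongation, and eIF6 keeps free large subunits from joining.

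The 6 libraries held between 34425162 and 40538274 counts. PGK1 itself lay between 12221 and 13340 CPM (read counts scaled to a common, TMM-normalised library size) in the PGK1_OE libraries and between 519 and 527 CPM in the WT libraries. Of 6 fibroblast-lineage markers, 4 averaged at least 10 CPM. The sum of all 6 was 5297 to 5411 CPM in PGK1_OE and 2875 to 3339 CPM in WT, most of it VIM (means of 3569 and 1890 CPM). THY1 went the other way at a low level, with means of 0.0545 CPM in PGK1_OE and 0.465 CPM in WT. Of 6 epithelial markers KRT8 and KRT18 averaged at least 10 CPM, and EPCAM had 0 counts in every library. Their sum over all 6 was 313 to 328 CPM in PGK1_OE and 151 to 170 CPM in WT. CDH1 went the other way, with means of 0 CPM in PGK1_OE and 0.559 CPM in WT. None of 5 blood cell markers averaged 10 CPM, with sums of at most 0.511 CPM in PGK1_OE and 0.317 CPM in WT. The part of these marker levels in the results below was not tested.

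Promoters are shown first for 4 genes as examples, which do not stand for the members as a set. Counts over the members with a promoter window are given below. EIF4E and EIF4G1, the cap-binding protein and its scaffold, did not pass the test, while EIF1B fell and EIF4EBP2 rose. Each line gives the 250 bases before the RefSeq start on GRCh38.p14, 5′ to 3′ on the gene's strand, with the E-box letters CACGTG in capitals. The EIF4E window is chr4:98929134-98929383 on the minus strand and holds 2 E-boxes, which begin 225 and 72 bases before the start. The EIF4G1 window is chr3:184314356-184314605 on the plus strand and holds 2, at 144 and 67 bases. The EIF1B window is chr3:40309457-40309706 on the plus strand and holds 1, at 54 bases, and the EIF4EBP2 window, chr10:70403895-70404144 on the plus strand, holds 0.
EIF4E: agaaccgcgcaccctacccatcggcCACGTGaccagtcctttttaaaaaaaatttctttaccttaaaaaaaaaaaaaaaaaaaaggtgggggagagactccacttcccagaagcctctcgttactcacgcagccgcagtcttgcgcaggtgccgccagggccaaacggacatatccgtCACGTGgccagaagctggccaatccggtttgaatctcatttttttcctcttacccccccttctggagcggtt
EIF4G1: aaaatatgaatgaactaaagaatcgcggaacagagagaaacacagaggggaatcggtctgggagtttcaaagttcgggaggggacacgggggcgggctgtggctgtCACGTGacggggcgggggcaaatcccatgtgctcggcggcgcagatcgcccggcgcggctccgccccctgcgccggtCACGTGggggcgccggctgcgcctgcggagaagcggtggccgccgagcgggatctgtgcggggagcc
EIF1B: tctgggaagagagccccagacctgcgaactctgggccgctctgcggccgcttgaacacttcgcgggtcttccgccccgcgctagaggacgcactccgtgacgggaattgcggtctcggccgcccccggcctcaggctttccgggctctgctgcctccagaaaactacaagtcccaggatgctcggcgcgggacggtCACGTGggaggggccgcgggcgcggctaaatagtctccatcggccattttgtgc
EIF4EBP2: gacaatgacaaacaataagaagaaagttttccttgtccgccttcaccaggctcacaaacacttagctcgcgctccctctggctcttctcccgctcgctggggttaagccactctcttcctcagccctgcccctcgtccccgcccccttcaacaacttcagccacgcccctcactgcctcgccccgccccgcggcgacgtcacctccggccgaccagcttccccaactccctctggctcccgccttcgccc

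Most initiation factor mRNAs were lower in PGK1_OE cells, mostly by small amounts. The 52 genes together took 1.51% ± 0.00951 of all counts in PGK1_OE libraries and 1.84% ± 0.00263 in WT libraries (SD, n = 3 each). Of 49 members with enough counts to test, 13 rose, 29 fell and 7 did not pass edgeR's quasi-likelihood test at an adjusted p under 0.05 (Benjamini-Hochberg over all rows). That is 26.5% higher and 59.2% lower, where 35.4% of all 14322 rows tested were higher and 35.8% lower. Called in either direction were 85.7% of the members and 71.2% of all rows. EIF4E1B had 0 counts in every library, EIF4EBP3 had 1 to 4 counts, and EIF1AY, a Y-linked member, was not among the tested genes either.

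The members' changes were narrower than those over all tested rows, which were not matched to the members for expression level. The median log2 fold change of the members was -0.22, against -0.02 over all rows, and the median absolute change was 0.39, against 0.56. Only 3 members passed with a change of 2-fold or more (6.12%, against 24.1% of all rows), and 14 members passed with an absolute log2 fold change of at least 0.5 (28.6%, against 47.4%). The members are well expressed, with a median of 233 CPM in PGK1_OE and 247 CPM in WT. Their median standard error (SE) was 0.04, against 0.08 over all rows, which bears on how small a change could pass. In 43 members (87.8%, against 76.4% of all rows) the PGK1_OE and WT values did not overlap, 13 lying above and 30 below.

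In the members given per library in CPM below, the PGK1_OE and WT values did not overlap unless overlap is named. Strand use in counting is not known, so genes whose exons overlap a gene on the other strand are uncertain. Among those described, these are EIF1AD (with BANF1), EIF1B (EIF1B-AS1), EIF2A (SERP1), EIF2B1 (DDX55 and GTF2H3), EIF2S1 (ATP6V1D), EIF3A (NANOS1), EIF4A2 (RFC4), EIF4E2 (TIGD1), EIF4E3 (GPR27), EIF4ENIF1 (SFI1), EIF4G2 (CTR9), EIF5A (GPS2) and EIF5B (REV1), and also EIF2B2, EIF2B3, EIF2B4, EIF2B5, EIF3G, EIF3H, EIF3I, EIF3J, EIF3L, EIF3M, EIF4B and EIF4E. Exons also overlap a gene on the same strand in EIF3L (AL022311.1), EIF4E (TBCAP3), EIF4E3 (AC097634.4), EIF4G2 (SNORD97) and EIF6 (AL121753.1). Their counts are uncertain for that reason too, and EIF4A1 and EIF4A2 are treated below. In the sample labels the batch entry is the same for all 6 libraries.

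**Figure D1:**
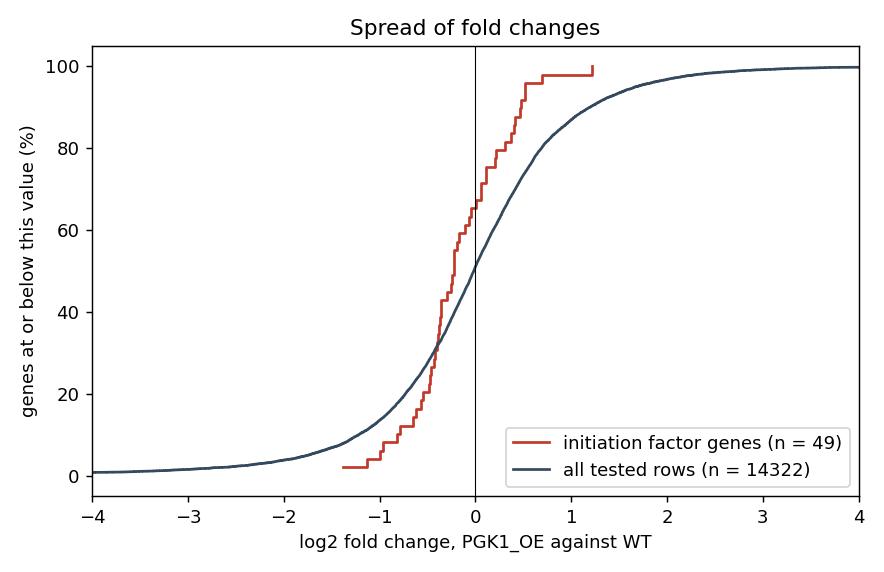
Cumulative share of genes (y axis, %) at or below a log2 fold change of PGK1_OE against WT (x axis) for the 49 tested initiation factor genes and all 14322 tested rows. The members' curve is steeper, spans -1.38 to 1.21, and crosses its middle at -0.22, left of the middle of all rows at -0.02.

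**Figure D2:**
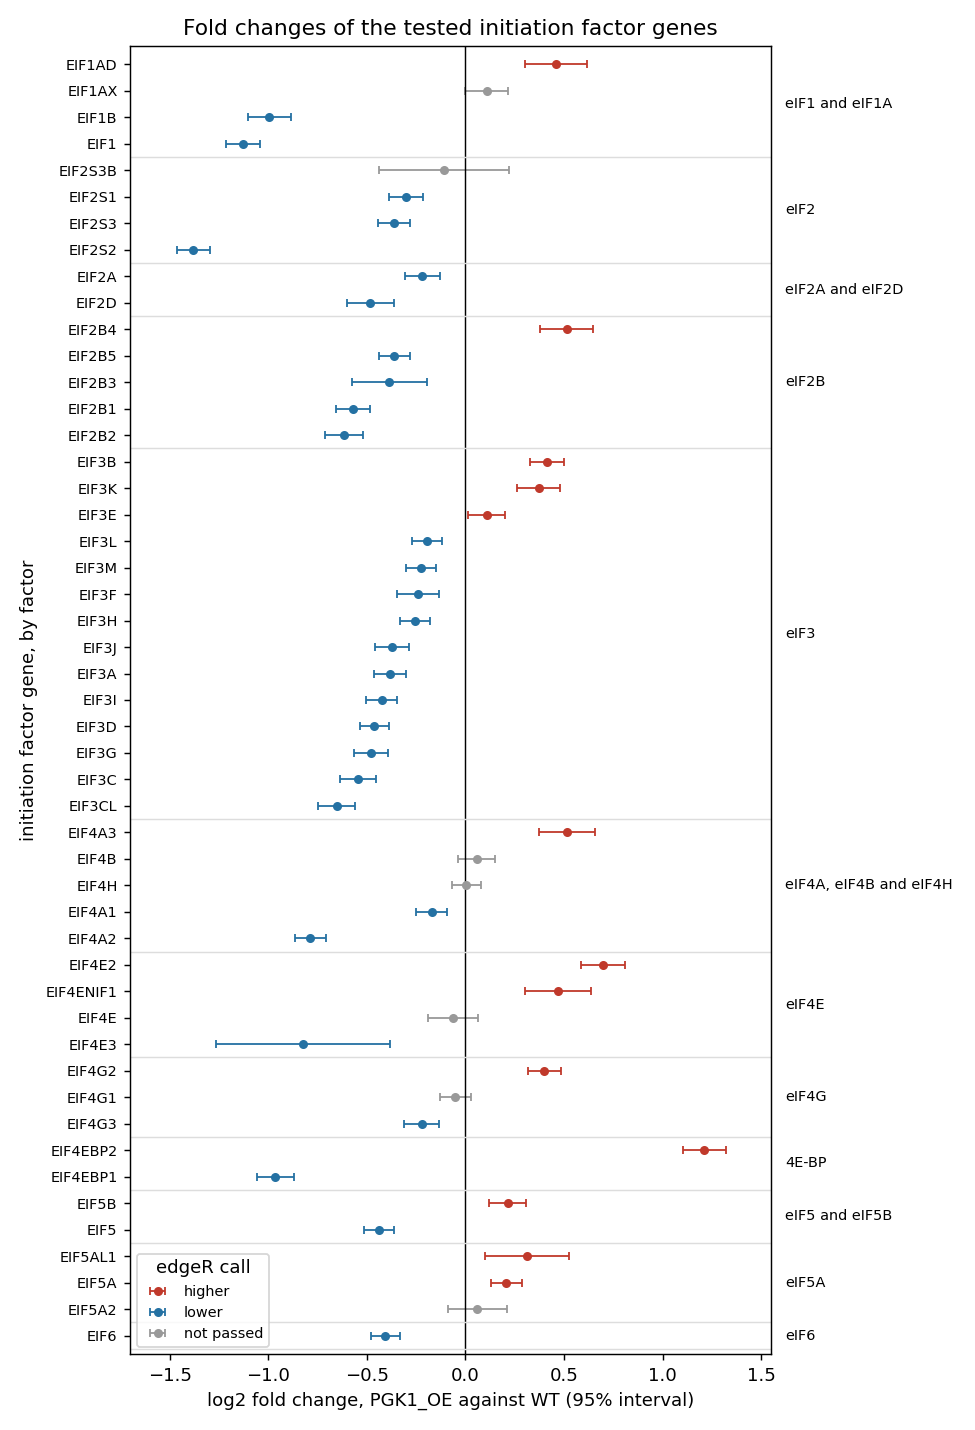
Log2 fold change of PGK1_OE against WT with its 95% interval (x axis) for each of the 49 tested initiation factor genes (y axis), grouped by factor and coloured by edgeR call. EIF2S2 at -1.38 and EIF4EBP2 at 1.21 are the outermost points, and most eIF3 genes lie between -0.19 and -0.65.

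In eIF2, the mRNA of the beta subunit fell most. EIF2S2 (ENSG00000125977, chromosome 20, 34088298 to 34112332, minus strand) had 224, 234 and 240 CPM in the PGK1_OE libraries, against 607, 594 and 615 CPM in the WT libraries. The 3 PGK1_OE values lay far below the WT values, and the gene fell 2.60-fold (log2 fold change -1.38, SE 0.04, with an edgeR adjusted p of 8.02e-11), the largest fall among the members. EIF2S1, the alpha subunit that the stress kinases phosphorylate, averaged 279 ± 3.86 CPM in PGK1_OE and 343 ± 14.4 CPM in WT (SD, n = 3 each), a log2 fold change of -0.30. EIF2S3, the gamma subunit that binds GTP and the initiator tRNA, averaged 368 ± 3.05 CPM in PGK1_OE and 473 ± 18.4 CPM in WT (-0.36). The near copy EIF2S3B, at 6.50 ± 1.05 CPM in PGK1_OE and 7.0 ± 0.248 CPM in WT, did not pass (95% interval of the log2 fold change -0.44 to 0.22).

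The deposited FPKM values are scaled for gene length, and the subunits were set side by side by FPKM. FPKM did not follow the counts at a fixed ratio in every gene, so orders and ratios by FPKM are uncertain. In PGK1_OE replicates 1, 2 and 3, EIF3H had 296, 305 and 305 CPM but 76.0, 111 and 71.9 FPKM. The cause was not tested. EIF2S2 stood at 80.6, 84.1 and 85.4 FPKM in PGK1_OE and at 224, 222 and 227 FPKM in WT. In WT libraries it was the highest of the 3 main eIF2 subunits, above EIF2S3 at 130 ± 4.01 and EIF2S1 at 79.0 ± 3.75 FPKM. In PGK1_OE libraries EIF2S3 was highest at 97.7 ± 0.935 FPKM, and EIF2S1 was lowest at 62.3 ± 0.754 FPKM. The 3 subunits thus spanned a narrower range of FPKM in PGK1_OE, and in neither group did neighbours in the order overlap.

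eIF2B, the 5-subunit exchange factor of eIF2, changed in all its subunits, 4 lower and 1 higher. Among all tested rows 71.2% were called, 35.4% higher and 35.8% lower. EIF2B2, the beta subunit, had 134, 121 and 125 CPM in PGK1_OE, against 196, 195 and 190 CPM in WT (log2 fold change -0.62, SE 0.04, edgeR adjusted p = 1.42e-07). EIF2B1, the alpha subunit, had 107, 102 and 109 CPM in PGK1_OE, against 155, 160 and 157 CPM in WT (-0.57, SE 0.04). EIF2B4, the delta subunit, was the one that rose, with 38.5, 38.2 and 37.1 CPM in PGK1_OE, against 25.9, 25.9 and 27.9 CPM in WT (0.51, SE 0.06, edgeR adjusted p = 1.18e-05). The gamma subunit EIF2B3 (-0.39) and the catalytic epsilon subunit EIF2B5 (-0.36) fell. The FPKM ratio of EIF2B5 to EIF2S1 was 0.733, 0.752 and 0.705 in PGK1_OE and 0.793, 0.729 and 0.808 in WT, with overlap (exact permutation p = 0.3). EIF2A and EIF2D, which can bring initiator tRNA to the ribosome outside the eIF2 route, fell by 0.22 and 0.48 on the log2 scale. EIF2A was at -0.36 on log2(FPKM + 1) (limma adjusted p = 0.00155).

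Both eIF1 genes of start-codon selection fell by a similar amount. EIF1 (ENSG00000173812, chromosome 17, 41688885 to 41692668, plus strand) had 568, 541 and 569 CPM in PGK1_OE, against 1173, 1268 and 1227 CPM in WT. It fell 2.19-fold (log2 fold change -1.13, SE 0.04, edgeR adjusted p = 4.70e-10). EIF1B, its close paralogue, had 55.5, 50.1 and 52.4 CPM in PGK1_OE, against 107, 102 and 106 CPM in WT (-0.99, SE 0.05). Both genes were thus at about the same fraction of their WT level. The FPKM ratio of EIF1B to EIF1 was somewhat higher in PGK1_OE, without overlap. It was 0.220 ± 0.00761 in PGK1_OE and 0.202 ± 0.0126 in WT (SD, n = 3 each; exact permutation p = 0.1, the smallest this design allows).

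EIF1AX, which encodes eIF1A, did not pass, at 207 ± 14.0 CPM in PGK1_OE and 192 ± 4.41 CPM in WT (log2 fold change 0.11, SE 0.05, edgeR adjusted p = 0.0707). It did pass without PGK1_OE replicate 1 (0.17, edgeR adjusted p = 0.00662) and in limma on log2(FPKM + 1) with a filter on FPKM (0.15, adjusted p = 0.0339). Its adjusted p ran from 0.00662 to 0.289 over the alternatives. EIF1AD, a protein with an eIF1A-like domain, rose (0.46, SE 0.07).

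**Figure D3:**
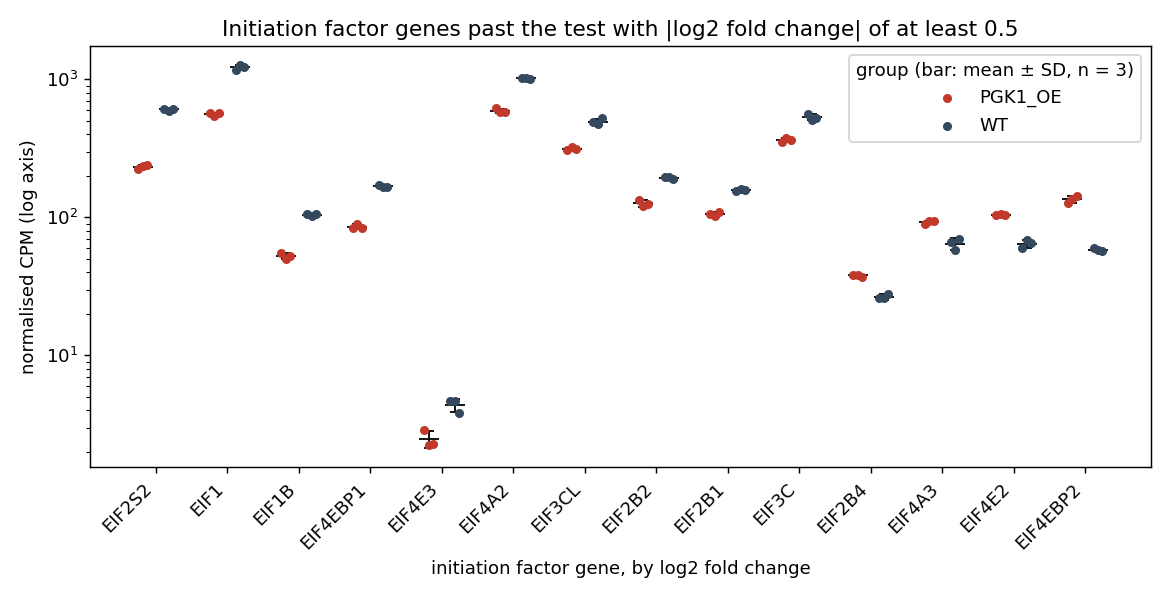
Normalised CPM (y axis, log scale) in each library for the 14 members past the test with an absolute log2 fold change of at least 0.5, ordered from the largest fall to the largest rise, PGK1_OE left of WT, bars showing mean ± SD (n = 3). The groups are apart in all 14 genes, from EIF2S2 at 233 CPM in PGK1_OE and 605 CPM in WT to EIF4EBP2 at 135 CPM in PGK1_OE and 58.5 CPM in WT.

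eIF3 was the factor with the most members, and all 14 of its tested genes passed, EIF3C and its copy EIF3CL counted apart. Of these, 11 were lower and 3 higher, with a median log2 fold change of -0.31. Of all tested rows 71.2% passed, 35.4% higher and 35.8% lower. EIF3A, the large subunit around which the complex assembles, had 616, 650 and 651 CPM in PGK1_OE, against 844, 811 and 843 CPM in WT (-0.38, SE 0.04, edgeR adjusted p = 1.81e-06). EIF3C had 354, 375 and 367 CPM in PGK1_OE, against 559, 510 and 528 CPM in WT (-0.54, SE 0.04), and its near-identical copy EIF3CL had 305, 323 and 314 CPM in PGK1_OE, against 488, 472 and 523 CPM in WT (-0.65, SE 0.04). Reads of EIF3C and EIF3CL can be split between the rows by the counting, so each value is uncertain, and the log2 fold change of their sum was -0.60.

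The genes of eIF3 that rose were EIF3B, EIF3K and EIF3E. EIF3B, a core subunit that contacts EIF3A, had 323, 337 and 339 CPM in PGK1_OE, against 250, 241 and 259 CPM in WT (0.41, SE 0.04, edgeR adjusted p = 1.96e-06). EIF3K had 207, 204 and 208 CPM in PGK1_OE, against 159, 148 and 171 CPM in WT (0.37, SE 0.05). The rise of EIF3E was small (0.11, SE 0.04, edgeR adjusted p = 0.0380) and was lost in 9 of 19 alternatives (adjusted p 0.0146 to 0.618). Among these, its adjusted p was 0.0770 without PGK1_OE replicate 2, 0.0849 without PGK1_OE replicate 3 and 0.0536 without WT replicate 2. Library totals gave 0.157, and blocking on the replicate number gave 0.0546.

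The other falls in eIF3 were EIF3G (-0.48), EIF3D (-0.46), EIF3I (-0.42), EIF3J (-0.37), EIF3H (-0.25), EIF3F (-0.24), EIF3M (-0.22) and EIF3L (-0.19). EIF3D can itself bind the cap of some mRNAs, EIF3G and EIF3I belong with EIF3B to the part conserved in yeast, and EIF3J binds the complex loosely. The calls for EIF3M, EIF3F and EIF3H were not made on the deposited FPKM. On the log2(FPKM + 1) scale EIF3M was -0.02 (limma adjusted p = 0.644) and EIF3H -0.14 (0.413), while EIF3F was -0.27 (0.128). That scale understates changes of low genes, but log2(FPKM + 0.1) gave nearly the same values for EIF3M, EIF3H and EIF3F (-0.02, -0.14 and -0.27). Over all alternatives the adjusted p ran up to 0.644 for EIF3M, 0.522 for EIF3H and 0.220 for EIF3F. The FPKM of all 3 genes overlapped between the groups. EIF3M had 94.8, 94.9 and 95.5 FPKM in PGK1_OE, against 98.3, 95.2 and 95.5 FPKM in WT, a narrow spread in both groups. EIF3H had 76.0, 111 and 71.9 FPKM in PGK1_OE, against 96.8, 90.9 and 91.9 FPKM in WT, with PGK1_OE replicate 2 the highest of the 6. EIF3F had 45.3, 40.8 and 40.6 FPKM in PGK1_OE, against 65.7, 42.3 and 47.5 FPKM in WT, with WT replicate 1 the highest.

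Levels of the eIF3 genes differed 6.03-fold in PGK1_OE and 5.28-fold in WT from the lowest to the highest mean FPKM, although the subunits act in 1 complex. EIF3C and EIF3CL were ranked as separate rows. EIF3C stood at 115 ± 3.26 FPKM in PGK1_OE and 171 ± 8.28 FPKM in WT, and EIF3CL at 98.7 ± 2.79 and 160 ± 7.36 FPKM. The top rank and the range in WT may therefore depend on how reads were split between these rows. EIF3K was the highest in PGK1_OE (254 ± 5.54 FPKM, against 203 ± 17.0 in WT), and EIF3D had the highest mean in WT (191 ± 2.26 FPKM in PGK1_OE, against 274 ± 7.26 in WT). In WT it overlapped with EIF3I, at 200 ± 4.55 FPKM in PGK1_OE and 262 ± 16.1 FPKM in WT. EIF3F was the lowest in both, at 42.2 ± 2.68 FPKM in PGK1_OE and 51.9 ± 12.3 FPKM in WT. EIF3F and EIF3J, at 45 ± 1.04 FPKM in PGK1_OE and 60.5 ± 0.974 FPKM in WT, were neighbours within their spread.

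**Figure D4:**
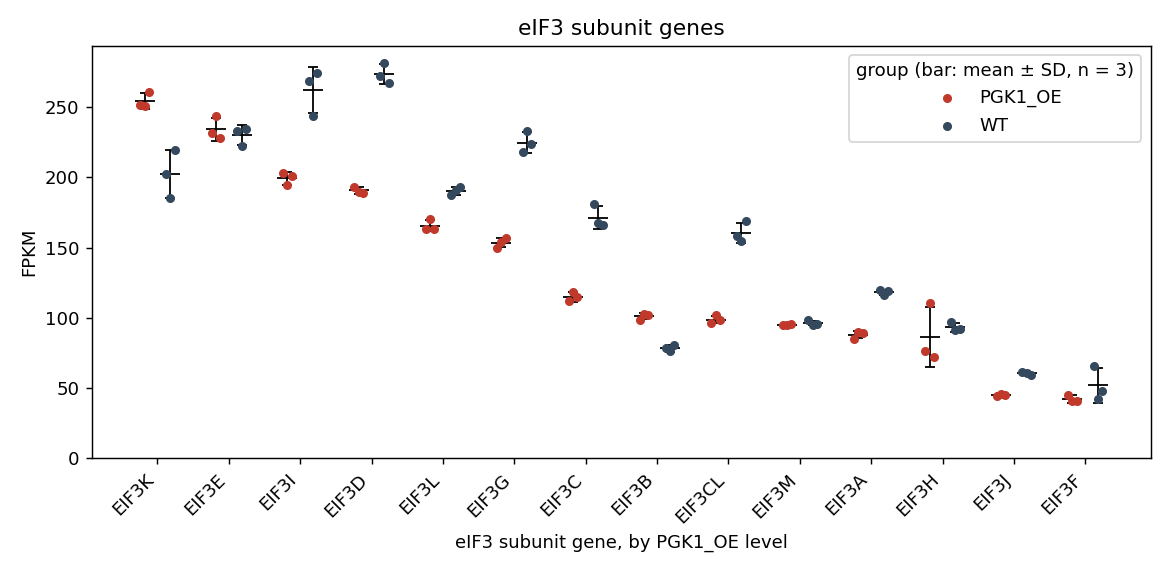
FPKM (y axis, from 0) of the 14 eIF3 genes in each library, ordered by the PGK1_OE mean, PGK1_OE left of WT, bars showing mean ± SD (n = 3). EIF3K, EIF3B and EIF3E have higher means in PGK1_OE, the other 11 in WT, and the EIF3H points of PGK1_OE are spread from 71.9 to 111 FPKM.

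The helicase eIF4A is encoded by the paralogues EIF4A1 and EIF4A2, and the more abundant one changed less. EIF4A1 was the highest member of all, at 921 ± 37.3 FPKM in PGK1_OE and 1131 ± 10.2 FPKM in WT (SD, n = 3 each). By counts it had 1458, 1357 and 1393 CPM in PGK1_OE, against 1567, 1589 and 1582 CPM in WT, and fell (log2 fold change -0.17 with SE 0.04, edgeR adjusted p = 0.00105). EIF4A2 (chromosome 3, 186783205 to 186789900, plus strand) had 616, 582 and 582 CPM in PGK1_OE, against 1027, 1029 and 1011 CPM in WT, and fell (-0.79, SE 0.04, edgeR adjusted p = 3.29e-09). The FPKM ratio of EIF4A2 to EIF4A1 was 0.342, 0.302 and 0.296 in PGK1_OE and 0.457, 0.463 and 0.444 in WT, without overlap (exact permutation p = 0.1; 0.125 adjusted over 10 ratios).

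The EIF4A1 value is uncertain because the readthrough gene SENP3-EIF4A1 shares its exons on the same strand. That row, no member itself, had 1061, 5403 and 3979 counts in PGK1_OE and 9374, 6956 and 8029 in WT, and did not pass (-1.27, SE 0.65, edgeR adjusted p = 0.152). With both rows summed, EIF4A1 was at -0.27, more than 1.5 times its value alone, and on log2(FPKM + 1) the EIF4A1 row was at -0.30 (limma adjusted p = 0.000188). EIF4A2 hosts several small RNA genes, which share its strand.

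EIF4A3, a core protein of the exon junction complex left by splicing and not an initiation helicase, rose. It had 90.3, 93.4 and 94.1 CPM in PGK1_OE, against 66.0, 57.9 and 70.1 CPM in WT (0.52, SE 0.06, edgeR adjusted p = 2.03e-05). The helicase cofactors did not pass. EIF4B averaged 1046 ± 20.9 CPM in PGK1_OE and 1005 ± 55.9 CPM in WT (95% interval -0.04 to 0.15), and EIF4H 481 ± 7.95 CPM in PGK1_OE and 479 ± 8.33 CPM in WT (-0.07 to 0.08). The sign of EIF4H turned when library totals replaced TMM (-0.0407), without PGK1_OE replicate 2 (-0.0063) and on FPKM.

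The cap-binding protein and its main scaffold did not pass. EIF4E had 94.8, 104 and 97.3 CPM in PGK1_OE, against 98.5, 111 and 99.4 CPM in WT, with overlap (log2 fold change -0.06, 95% interval -0.19 to 0.06, edgeR adjusted p = 0.344). On log2(FPKM + 1) it was lower (-0.20, limma adjusted p = 0.0430, range over the alternatives 0.0430 to 0.939). EIF4G1 had 1000 CPM in PGK1_OE replicate 1 and 1075 and 1071 CPM in replicates 2 and 3, against 1089, 1083 and 1086 CPM in WT (-0.05, 95% interval -0.13 to 0.03). It passed with library totals (-0.10, edgeR adjusted p = 0.0285, range over the alternatives 0.0285 to 0.797).

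The paralogues of these proteins did change. EIF4G2, which lacks the eIF4E-binding part of eIF4G1, had 1283, 1258 and 1299 CPM in PGK1_OE, against 1008, 931 and 968 CPM in WT (0.40, SE 0.04, edgeR adjusted p = 1.50e-06). EIF4G3 fell by 0.22 on the log2 scale. The FPKM ratio of EIF4G2 to EIF4G1 was 1.63 ± 0.119 in PGK1_OE and 1.17 ± 0.0319 in WT, and that of EIF4G3 to EIF4G1 was 0.101 ± 0.00734 in PGK1_OE and 0.111 ± 0.000922 in WT (SD, n = 3 each; exact permutation p = 0.1 for each).

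EIF4E2, a cap-binding protein that represses translation, had 105, 105 and 105 CPM in PGK1_OE, against 60.4, 68.4 and 64.8 CPM in WT (log2 fold change 0.70 with SE 0.05, edgeR adjusted p = 1.73e-07). The deposited FPKM did not give that rise. They were 45.2, 44.5 and 46.6 in PGK1_OE and 37.6, 45.8 and 39.5 in WT, which overlap (0.15 on the log2(FPKM + 1) scale, limma adjusted p = 0.0894, range over the alternatives 4.14e-31 to 0.142). EIF4E3 was near the lower end of detection, with 2.87, 2.24 and 2.30 CPM in PGK1_OE, against 4.65, 4.64 and 3.85 CPM in WT (-0.82, SE 0.20, edgeR adjusted p = 0.00308). On log2(FPKM + 1) without a filter it was at -0.20 (limma adjusted p = 0.00405), a scale that understates changes of so low a gene. EIF4ENIF1, the eIF4E transporter that also links eIF4E to mRNA decay, rose by 0.47 on the log2 scale (SE 0.08).

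The 4E-BPs changed in opposite directions. EIF4EBP1 (ENSG00000187840, chromosome 8, 38030341 to 38060365, plus strand) had 83.9, 89.9 and 83.8 CPM in PGK1_OE, against 171, 165 and 166 CPM in WT. It fell 1.95-fold (log2 fold change -0.96, SE 0.04, edgeR adjusted p = 2.94e-09). EIF4EBP2 (ENSG00000148730, chromosome 10, 70404379 to 70428618, plus strand) had 128, 137 and 142 CPM in PGK1_OE, against 59.6, 58.5 and 57.4 CPM in WT. It rose 2.32-fold (1.21, SE 0.05, edgeR adjusted p = 1.38e-09), the largest rise among the members.

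Per length EIF4EBP1 remained the more abundant one in each library. It stood at 93.2, 99.8 and 92.3 FPKM in PGK1_OE and 195, 191 and 189 FPKM in WT, while EIF4EBP2 stood at 15.6, 16.8 and 17.3 FPKM in PGK1_OE and 7.5, 7.45 and 7.21 FPKM in WT. The ratio of EIF4EBP2 to EIF4EBP1 was 0.174 ± 0.0112 in PGK1_OE and 0.0385 ± 0.000470 in WT, and that of EIF4EBP1 to EIF4E was 2.39 ± 0.111 in PGK1_OE and 4.19 ± 0.340 in WT (SD, n = 3 each; exact permutation p = 0.1 for each). These are mRNA levels, and neither 4E-BP protein nor its phosphorylation was measured here.

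**Figure D5:**
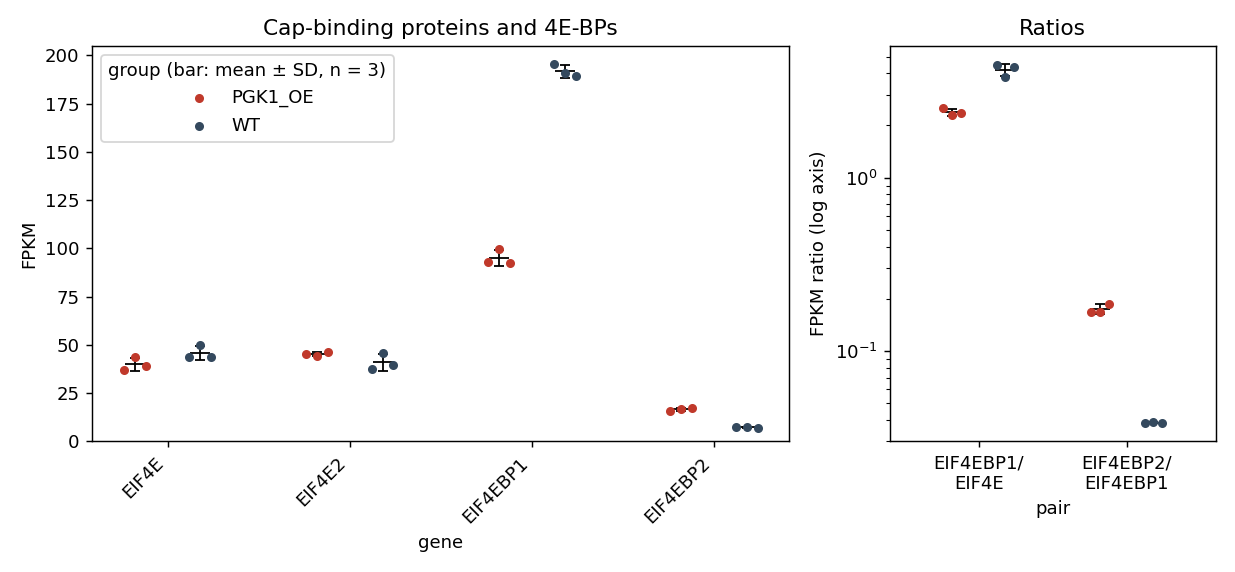
Left, FPKM (y axis, from 0) of EIF4E, EIF4E2, EIF4EBP1 and EIF4EBP2 in each library; right, FPKM ratios (y axis, log scale) of EIF4EBP1 to EIF4E and of EIF4EBP2 to EIF4EBP1. PGK1_OE (red) stands left of WT (dark), bars are mean ± SD (n = 3), and the EIF4EBP2 to EIF4EBP1 ratio is 0.174 in PGK1_OE and 0.0385 in WT.

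Of the factors of the last initiation steps, EIF5 and EIF6 fell and EIF5B rose. EIF5, which triggers GTP hydrolysis on eIF2, had 397, 387 and 388 CPM in PGK1_OE, against 541, 520 and 526 CPM in WT (-0.44, SE 0.03, edgeR adjusted p = 3.06e-07). EIF5B, the GTPase of subunit joining, rose by 0.21 (SE 0.04). EIF6 had 241, 240 and 238 CPM in PGK1_OE, against 314, 324 and 315 CPM in WT (-0.41, SE 0.03, edgeR adjusted p = 5.85e-07).

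EIF5A, which carries the modified lysine hypusine, had 668, 691 and 716 CPM in PGK1_OE, against 593, 601 and 602 CPM in WT (0.21, SE 0.04, edgeR adjusted p = 2.54e-04). EIF5A2, its paralogue, did not pass (0.06, 95% interval -0.09 to 0.21), and was at 0.0258 ± 0.00176 of EIF5A by FPKM in PGK1_OE and 0.0285 ± 0.00168 in WT (exact permutation p = 0.2). EIF5AL1, an intronless copy of EIF5A whose reads may be shared with it, rose by 0.31 (edgeR adjusted p = 0.0123), and by 0.20 on log2(FPKM + 1). Without PGK1_OE replicate 3 it did not pass (adjusted p = 0.0503, range over the alternatives 0.00953 to 0.0503).

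Sequence features of the promoters were counted in the 41 tested members that a RefSeq table matched by symbol. The motifs were searched on both strands in the 250 bases before the start, as letters only. CACGTG, the E-box read by MYC and related factors, was in 10 of 41 member windows (24.4%), against 8.78% of 10828 windows of tested genes and 6.49% of all 27305 windows. It was in 2 of 12 members that rose, 3 of 22 that fell and 5 of 7 that did not pass, the last being EIF4B, EIF4H, EIF4E, EIF4G1 and EIF5A2.

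A form of the NRF1 site, GCGCA and GCGC with any 1 base between, was in 8 of 41 member windows (19.5%), against 10.1% of windows of tested genes and 5.53% of all windows. CCGGAAGTG, an ETS-type site, was in 3 member windows (7.32%, against 3.75% and 1.93%). TGATGNAA, a core of the amino acid response element bound by ATF4, was in 0 of 41, where 1.52% of tested genes' windows and 3.19% of all windows hold it, and TGACGTCA was in 0 of 41 as well (2.85% and 1.77%). EIF2S2, EIF3A, EIF3CL, EIF3E, EIF3G, EIF3H, EIF3L and EIF4EBP1 were tested but were not among the windows used here. All of these but EIF3E fell, and the promoter counts by direction leave them out.

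A start of the TOP kind, a C at the RefSeq start followed by at least 4 pyrimidines, is the mark of mRNAs whose translation follows mTORC1. It was found in 10 of 41 members (24.4%), against 5.36% of tested genes and 4.04% of all windows. Of these, 7 fell (EIF2S3, EIF2A, EIF2D, EIF3D, EIF3F, EIF3M and EIF4A2), EIF3K rose, and EIF2S3B and EIF4B did not pass. Their median log2 fold change was -0.23, against -0.06 for the 31 members without it. These counts are a description, and no test was made on them.

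Genes that work beside the initiation factors were read from lists chosen with earlier results of these data known. Of 21 initiation partners 7 rose, 8 fell and 6 did not pass (median -0.06). The 15 called stand beside 71.2% of all tested rows (35.4% higher, 35.8% lower), so their number does not set the partners apart. DDX3X, an RNA helicase that helps on structured leaders, had 600, 625 and 607 CPM in PGK1_OE, against 306, 327 and 313 CPM in WT (0.95, SE 0.04, edgeR adjusted p = 1.01e-09). MKNK2, a kinase of eIF4E, averaged 65.1 ± 2.33 CPM in PGK1_OE and 37.3 ± 1.85 CPM in WT (0.80), whereas the eIF5 mimic BZW2 (-0.78) and the reinitiation factor DENR (-0.53) fell. The other eIF5 mimic, BZW1, named after its values were seen, was more abundant and rose, at 1002 ± 2.02 CPM in PGK1_OE and 740 ± 3.39 CPM in WT (0.44, edgeR adjusted p = 1.33e-07).

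Of 12 genes listed with the elongation and termination factors 3 rose, 7 fell and 2 did not pass (median -0.15). Of all tested rows 35.4% were higher and 35.8% lower. Those that rose include EEF2K and EEF1E1, which are described below and are not such factors themselves. EEF2, the translocase, averaged 2843 ± 55.5 CPM in PGK1_OE and 4112 ± 37.8 CPM in WT (-0.53, SE 0.03, edgeR adjusted p = 3.24e-08). EEF2K, the kinase that inhibits it, averaged 64.4 ± 6.18 CPM in PGK1_OE and 37.5 ± 2.34 CPM in WT (0.78, SE 0.08). EEF1E1, a scaffold of the tRNA synthetase complex, rose by 0.60, and the recycling factor ABCE1 fell by 0.46 on the log2 scale. Of the mitochondrial initiation factors MTIF2 fell by 1.08 on the log2 scale, with 65.9, 69.7 and 74.1 CPM in PGK1_OE, against 144, 152 and 147 CPM in WT. MTIF3 did not pass (0.17, edgeR adjusted p = 0.0740), but did without WT replicate 2 (0.22, adjusted p = 0.0446, range over the alternatives 0.0446 to 0.205).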

How the data were processed

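PolyA RNA was sequenced in 6 libraries, which the sample titles place in groups and number. The submitters' processing notes name fastp, HISAT and hg38, without versions. The read counter, its strand setting and the FPKM tool are not stated there. Raw read counts per gene were deposited as 1 table. FPKM were deposited as another, normalised by the authors for gene length and library size (column sums 384333 to 390840).

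Counts were tested in R 4.3.3 with edgeR 4.0.16. Rows were kept by filterByExpr by group (14322 of 21619), scaled by TMM, fitted by robust quasi-likelihood with a group term alone, and tested two-sided with Benjamini-Hochberg adjustment over all rows. The common dispersion was 0.0230. SE is the absolute log2 fold change over the square root of F, and 95% intervals use the fit's degrees of freedom. Levels are normalised CPM. FPKM ratios were compared by two-sided exact permutation, for which 0.1 is the smallest p. Within a group, library pairs differed by chi-square per degree of freedom of 7.93 to 15.2, so none was taken as a repeat. Counts were also simulated for PGK1_OE against WT, with 200 genes changed and 14167 rows tested. Of log2 changes of 0.5, 1 and 2, 16.7%, 80.6% and 100% were recovered, and 2.22% of 135 calls were false. Every simulated row had the common dispersion, and few rows were changed, whereas 71.2% of rows were called in the data. The simulated shares therefore do not carry over to the members, whose median SE was 0.04.

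Members and lists were chosen with earlier results of these data known. Full values are given for members past the threshold with an absolute log2 fold change of at least 0.5 and for the member with the most counts of each factor. Up to 4 genes per further list with the smallest adjusted p, or any past 1.5 on the log2 scale, are named. The promoter motifs were chosen after the fold changes were seen. Annotation is GENCODE 29 on GRCh38, matched by Ensembl identifier, and promoters are RefSeq on GRCh38.p14. Alternatives were RLE factors, library totals, PGK1 left out of scaling, other low-count filters, DESeq2 1.42.0, limma-voom and limma 3.58.1 on log2(FPKM + 1) or log2(FPKM + 0.1), the replicate block, each library left out and an adjusted p under 0.01. Summing near-identical or readthrough rows was chosen after seeing the data.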

Additional observations from a re-analysis of the deposited data

How the results depend on the processing

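Of the 49 tested members, 38 had the same direction and the same side of the threshold under each of 19 alternatives that gave them a value. The count of members higher was 11 to 14 and of members lower 26 to 30 over all alternatives, and without one library each they were 11 to 14 and 29. The titles share replicate numbers, but same-numbered libraries did not deviate together (correlations of -0.0134, -0.0129 and 0.0952), and not every library correlated best with its own number. With the replicate number as a block, 12 members were higher and 29 lower, and 4973 and 4970 of all rows. Results that turned sign were among those that did not pass. EIF4H was -0.0407 with library totals, -0.0063 to 0.025 without one library each (-0.0063 without PGK1_OE replicate 2), -0.062 on log2(FPKM + 1) with and without the filter, and -0.063 on log2(FPKM + 0.1). Without one library each, EIF2S3B was -0.21 to 0.0097, the last without PGK1_OE replicate 3, and EIF4E -0.10 to 0.0047, the last without WT replicate 2. The log2 difference in the EIF4E2 to EIF4E ratio was 0.35 by FPKM and 0.76 by normalised CPM. The cause of these was not tested. Depth limits EIF4E3 and EIF2S3B most.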

Other observations

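The readthrough row SENP3-EIF4A1 differed within the PGK1_OE group. Its share of the summed SENP3-EIF4A1 and EIF4A1 counts was 1.79% in PGK1_OE replicate 1, 9.12% in replicate 2 and 7.5% in replicate 3, against 13.6%, 11% and 12.2% in WT replicates 1, 2 and 3. ANKHD1-EIF4EBP3, the readthrough row that holds the exons of EIF4EBP3, had 3544, 4146 and 3077 counts in PGK1_OE and 2786, 2753 and 3120 counts in WT with overlap (log2 fold change 0.25, edgeR adjusted p = 0.0219), while EIF4EBP3 itself had at most 4 counts in any library. These rows were named after their values were seen.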
